A study of Mus musculus with 35 samples.

Results

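The comparison described here set naive CD8 T cells of the spleen against CD8 single positive cells of the thymus, both from mice in which both copies of Dot1l were floxed and a Cre transgene was present. Its members are the 8 libraries whose labels join this genotype to these cell types, 4 KO naive and 4 KO thymus libraries of 35 in the series, and the contrast was tested over the 10296 of 52636 genes that had enough counts. The KO genotype is given as Lcre+/-;Dot1Lfl/fl on the C57BL/6 strain. KO naive cells were sorted from spleen as CD44- cells of the naive gate, and KO thymus cells as thymic CD8 SP. The same contrast was read in Lcre+/-;Dot1Lwt/wt mice (WT, 4 naive and 3 thymus libraries) and in Lcre+/-;Dot1Lfl/wt mice (Het, 4 and 4), so that the controls carry the Cre transgene too. The labels give neither the promoter that drives Cre, nor the floxed part of Dot1l, nor the ages of the mice, and do not say whether 1 library is 1 animal. The p-values therefore measure the spread between these samples.

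A CD8 single positive thymocyte finishes its development in the thymic medulla and then leaves for the blood. During this step it stops expressing recombination and chemokine receptor genes of the thymus, and the transcription factor KLF2 switches on S1PR1, the receptor that reads sphingosine-1-phosphate at the exit. The naive cell that results is kept alive by interleukin-7 and by weak contacts of its antigen receptor, and it rests outside the cell cycle. DOT1L methylates a lysine of histone H3 in the body of transcribed genes.

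The 8 KO libraries held 7175138 to 14088973 counts. The 7 CD8 T cell markers summed to 1044 to 1322 CPM in KO naive and 1169 to 1248 CPM in KO thymus libraries, and Cd4 had 0 to 2 counts in each. Most of this sum came from Lck (6543 to 12668 counts) and Cd3e (1810 to 3897 counts), which are general T cell genes. The sum therefore does not tell CD8 cells from other T cells. Some transcripts known to be abundant in T cells had few counts, with 54 to 136 for Cd8a, 3 to 27 for Cd3d, 28 to 76 for B2m and 22 to 61 for Gapdh. A low count in this table therefore does not show a low level of the transcript, which also holds for Cd4 and for the low values of Cd69, Cd24a and Il7r given below. On principal components of log2 CPM (counts scaled by library size), the first, with 64.2% of the variance, separated the 4 KO naive from the 4 KO thymus libraries. KO naive replicate 3 lay apart on the second (9.14% of the variance) and KO naive replicate 4 on the third (7.59%). KO naive replicate 3 and KO thymus replicate 3 were from females and the other 6 from males, read from Xist and Y-linked counts. The 12 B cell genes of a marker list summed to 17.1, 13.6, 46.6 and 260 CPM in KO naive replicates 1 to 4, against 15.7 to 26.6 CPM in KO thymus libraries. In KO naive replicate 4 the B cell factor genes Pax5 and Ebf1 had 431 and 407 counts. The 8 myeloid markers summed to 9.445 CPM in KO naive replicate 4, against 0.548 to 1.29 CPM in the other KO naive libraries. In KO thymus libraries they summed to 0.137 to 1.515 CPM. Csf1r had 100 and Lyz2 13 counts in KO naive replicate 4, while Itgam, Fcgr3, S100a8 and S100a9 were at 0 in all 8 libraries. Of 6 thymic epithelium markers Foxn1 and Krt5 were at 0. The 4 globin genes summed to 41.1, 27.4, 1.18 and 28.8 CPM in KO naive libraries and were at 0 in all KO thymus libraries. The part of B cell, myeloid and red cell RNA in the results was not tested. List counts and levels that rest on KO naive replicates 3 or 4 are given with and without them, and calls of differences between genotypes that are lost without them stand in the closing section.

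The label KO cannot be checked on the level of Dot1l. Its level was 57.1, 56.0, 55.6 and 54.0 CPM in KO naive libraries (replicates 1 to 4, the order used throughout), against 78.8, 77.5, 74.9 and 78.1 CPM in KO thymus libraries. It was 47.2 to 51.6 CPM in WT naive and 61.1 to 70.4 CPM in WT thymus libraries, so the whole-gene count was no lower in the libraries labelled KO. Dot1l was lower in KO naive than in KO thymus libraries, with a log2 fold change of -0.47 ± 0.08 (SE; edgeR adjusted p = 3.30e-06), and in WT the log2 fold change was -0.44 ± 0.09. The labels do not say which exons are floxed, and a count over all exons does not show whether they were deleted.

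Many genes differed between the naive and thymus libraries labelled KO. At an adjusted p under 0.05, 4543 of 10296 genes (44.1%) were called, 2309 higher (22.4%) and 2234 lower (21.7%) in KO naive than in KO thymus libraries. The shares of 22.4% and 21.7% are the background for every list count of KO naive against KO thymus below. The 4 KO naive and 4 KO thymus CPM values did not overlap for 4085 genes (39.7%). Most changes were small, since 483 genes (4.69%) rose and 673 (6.54%) fell by more than 1 on the log2 scale. The median log2 fold change of all tested genes was 0.05. In bulk RNA, fewer cells of a type and less RNA per cell cannot be told apart.

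**Figure D1:**
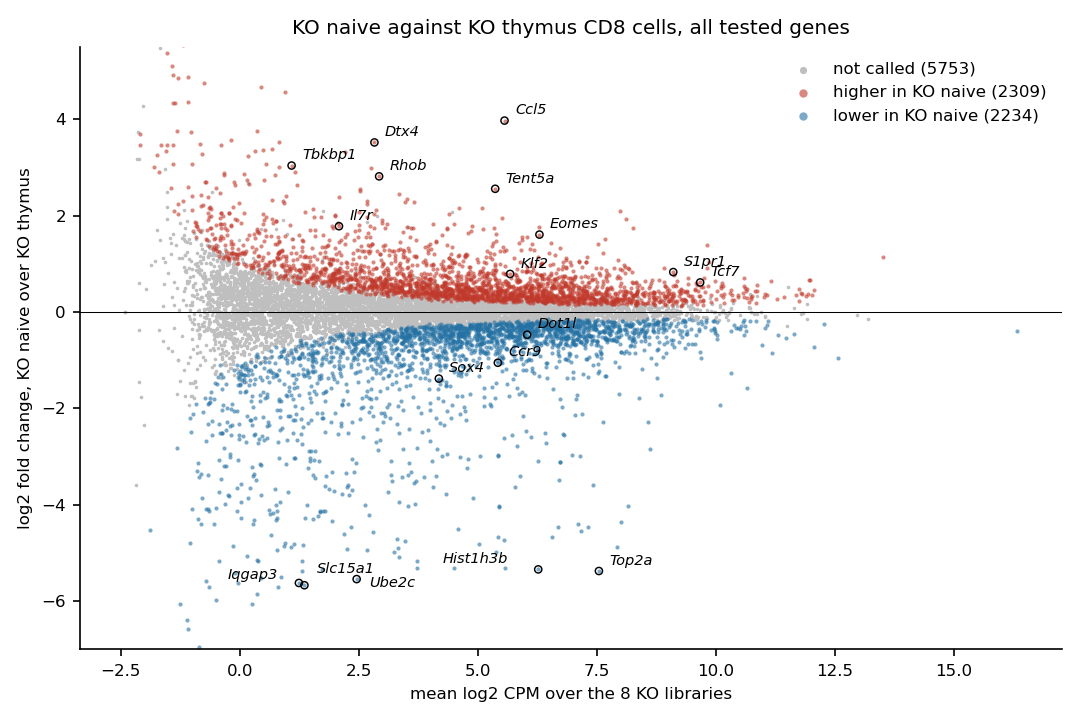
Log2 fold change of KO naive over KO thymus libraries against the mean log2 CPM of the 8 libraries, 1 point per tested gene (17 genes lie outside the plotted range). Of the labelled genes, Ccl5 is the highest at 3.97, and Slc15a1 and Iqgap3 are the lowest, below -5.6.

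The 8 highest genes by the rule for named genes (called, mean log2 CPM of at least 1, no overlap of library values) were Ccl5, Dtx4, Tbkbp1, Samd3, Acoxl, Rhob, Prss12 and Tent5a, with log2 fold changes of 3.97 to 2.56. Dtx4, which encodes a ubiquitin ligase of the Deltex family, had 31.5, 17.7, 18.1 and 27.8 CPM in KO naive libraries, against 2.20, 1.96, 2.81 and 1.28 CPM in KO thymus libraries. Its log2 fold change was 3.52 ± 0.23 (adjusted p = 4.47e-16). Rhob, a small GTPase of the actin cytoskeleton, had 18.6, 22.5, 19.9 and 20.4 CPM in KO naive libraries, against 1.52, 3.93, 2.54 and 3.19 CPM in KO thymus libraries. The KO naive values of Rhob lay close together (log2 fold change 2.81 ± 0.28, adjusted p = 7.10e-10). Separation of the naive from the thymus values was a condition for naming these 8 genes and is not a result. Tent5a, which encodes a poly(A) polymerase, had 90.6, 111, 98.2 and 101 CPM in KO naive libraries, against 16.3, 20.4, 17.02 and 14.3 CPM in KO thymus libraries (log2 fold change 2.56 ± 0.13).

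The 8 lowest genes were Slc15a1, Iqgap3, Ube2c, Shcbp1, Top2a, Aspm, Hist1h3b and Hist1h3c, with log2 fold changes of -5.67 to -5.32, and all but the first are known from dividing cells. Slc15a1, which encodes a peptide transporter, had 0.51, 0.11, 0.22 and 0.25 CPM in KO naive libraries, against 19.96, 15.4, 12.9 and 12.4 CPM in KO thymus libraries. It was close to the floor in all 4 KO naive libraries (log2 fold change -5.67 ± 0.33, adjusted p = 3.01e-16). The 2 histone genes are near copies of other genes in their cluster, so reads may be split among them and their values are uncertain.

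The lower level of replication and mitosis genes was the most uniform feature. All 24 tested genes of the DNA replication list fell, with a median log2 fold change of -2.57, against 21.7% of all tested genes called lower and a median of 0.05. The 28 tested genes of the mitosis and cell cycle list had 26 lower and 1 higher, with a median of -3.73. In WT 25 of the 28 fell and 1 rose, with a median of -3.39, against 16.9% of all tested genes called lower. The part of dividing cells among the sorted thymus cells was not tested. Top2a, the topoisomerase that untangles chromosomes at mitosis, had 19.3, 27.6, 36.2 and 34.5 CPM in KO naive libraries, against 1270, 1316, 1062 and 1233 CPM in KO thymus libraries (log2 fold change -5.38 ± 0.43, adjusted p = 6.26e-11). Ube2c, the ubiquitin-conjugating enzyme of the anaphase-promoting complex, had 0.59, 0.66, 0.97 and 0.66 CPM in KO naive libraries, against 30.7, 36.3, 28.2 and 39.6 CPM in KO thymus libraries (log2 fold change -5.55 ± 0.44). Both genes were low but detected in every KO naive library. Of the replication genes, Mcm2 and Mcm6, subunits of the replicative helicase, fell by 2.12 ± 0.07 and 1.81 ± 0.08 on the log2 scale. Pola1, the catalytic subunit of the primase-polymerase complex, had 46.9, 51.6, 44.2 and 43.0 CPM in KO naive libraries, against 300, 280, 235 and 275 CPM in KO thymus libraries (log2 fold change -2.55 ± 0.09, adjusted p = 8.26e-25). Rrm1, a subunit of ribonucleotide reductase, fell by 2.51 ± 0.11. Cdc20, Foxm1 and Prc1, which act in anaphase onset, transcription of mitotic genes and the central spindle, had log2 fold changes of -3.09 ± 0.21, -3.63 ± 0.25 and -3.74 ± 0.24. The single member of the cell cycle list that rose was Cdkn1b, which encodes the inhibitor p27 (log2 fold change 1.29).

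The promoters of these genes hold the short motifs known from cell cycle control. E2F factors are known to bind sites such as TTTGGCGC and GCGGGAA in genes of the S phase, and mitotic genes are known for a CCAAT box with a cell cycle homology region, TTTGAA. These 4 motifs were chosen for the search after the values had been seen. Shown are RefSeq promoters (GRCm38.p6, 250 bases before to 50 after the start, given on the gene's strand) of 2 mitotic genes with TTTGAA and CCAAT in capitals and of 2 replication genes with TTTGGCGC and GCGGGAA in capitals, on either strand.
Top2a, chr11:99024140-99024439, minus strand: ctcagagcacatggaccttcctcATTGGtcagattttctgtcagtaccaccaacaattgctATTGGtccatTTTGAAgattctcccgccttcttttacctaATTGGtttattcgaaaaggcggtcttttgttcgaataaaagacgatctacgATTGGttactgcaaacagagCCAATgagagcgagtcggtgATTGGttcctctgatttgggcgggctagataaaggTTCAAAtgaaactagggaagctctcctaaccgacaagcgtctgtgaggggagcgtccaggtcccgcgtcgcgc
Ube2c, chr2:164769679-164769978, plus strand: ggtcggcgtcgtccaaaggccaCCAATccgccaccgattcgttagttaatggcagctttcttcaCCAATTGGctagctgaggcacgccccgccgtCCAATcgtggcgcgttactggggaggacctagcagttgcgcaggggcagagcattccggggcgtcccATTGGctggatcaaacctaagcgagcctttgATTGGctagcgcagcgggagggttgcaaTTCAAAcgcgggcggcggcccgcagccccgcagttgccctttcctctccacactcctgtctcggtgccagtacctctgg
Mcm6, chr1:128359656-128359955, minus strand: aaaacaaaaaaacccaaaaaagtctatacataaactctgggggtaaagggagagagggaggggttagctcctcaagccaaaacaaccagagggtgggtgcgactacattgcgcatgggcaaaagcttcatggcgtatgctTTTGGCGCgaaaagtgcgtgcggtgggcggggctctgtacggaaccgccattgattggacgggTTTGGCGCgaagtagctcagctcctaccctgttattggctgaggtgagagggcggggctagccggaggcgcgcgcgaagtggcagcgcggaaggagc
Pola1, chrX:93632106-93632405, minus strand: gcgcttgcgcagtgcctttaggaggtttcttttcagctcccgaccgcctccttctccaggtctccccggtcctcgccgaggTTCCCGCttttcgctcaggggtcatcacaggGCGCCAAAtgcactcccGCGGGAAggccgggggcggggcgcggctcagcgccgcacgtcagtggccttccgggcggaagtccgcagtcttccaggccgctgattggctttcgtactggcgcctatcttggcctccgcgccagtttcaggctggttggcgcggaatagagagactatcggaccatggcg
Top2a held 2 matches to TTTGAA and 6 to CCAAT, and Ube2c 1 and 6. Mcm6 held 2 matches to TTTGGCGC, and Pola1 held 1 match to it and 2 to GCGGGAA. Over the mitosis and cell cycle list, TTTGAA was found in 14 of the 21 tested members that have a promoter entry (66.7%) and CCAAT in 19 (90.5%). Among the 7806 tested genes with an entry the shares were 13.9% and 43.2%. Over the DNA replication list, GCGGGAA was found in 10 of 20 members and TTTGGCGC in 5 (25.0%), against 10.3% and 1.29% of tested genes. Over all RefSeq promoters of this length the shares were 17.9% for TTTGAA, 37.4% for CCAAT, 4.60% for GCGGGAA and 0.514% for TTTGGCGC. A match is a description of the letters and does not show that a factor binds.

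Genes for leaving the thymus and homing to lymphoid organs rose for the most part. Of 21 tested genes of that list, 13 rose and 2 fell, with a median log2 fold change of 0.48, against 22.4% higher and 21.7% lower among all tested genes. Klf2, the Kruppel-like factor that directs exit, had 67.3, 71.3, 57.6 and 74.9 CPM in KO naive libraries, against 38.1, 43.9, 29.0 and 46.2 CPM in KO thymus libraries. Every KO naive value was above every KO thymus value (log2 fold change 0.79 ± 0.12, adjusted p = 1.76e-06). S1pr1, the exit receptor itself, had 843, 692, 615 and 803 CPM in KO naive libraries, against 456, 417, 413 and 379 CPM in KO thymus libraries (log2 fold change 0.83 ± 0.08, adjusted p = 1.62e-10). Il7r, the interleukin-7 receptor chain, had 6.33, 10.8, 7.96 and 5.55 CPM in KO naive libraries, against 2.20, 1.71, 2.33 and 2.55 CPM in KO thymus libraries (log2 fold change 1.78 ± 0.29, adjusted p = 3.94e-06). All values of Il7r were low, and the lowest KO naive value still exceeded the highest KO thymus value.

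Other members of the list followed. Dock2, an activator of Rac in migrating lymphocytes, rose by 0.64 ± 0.06 on the log2 scale, and Foxo1, a factor known to drive Klf2 and Il7r, by 0.48. Mst1 also rose (0.84), but this symbol names a secreted growth factor-like protein and not the kinase of lymphocyte exit, which is Stk4 (0.35, called). Gnai2 and Coro1a, a G protein subunit downstream of chemokine receptors and an actin regulator, were the 2 that fell, by 0.37 ± 0.06 and 0.28. Ccr7, the receptor for chemokines of lymph nodes and thymic medulla, had 81.6, 94.8, 87.4 and 98.5 CPM in KO naive libraries, against 93.5, 97.8, 71.6 and 83.6 CPM in KO thymus libraries. The groups overlapped (log2 fold change 0.07 ± 0.09, adjusted p = 0.584), and without KO thymus replicate 3 the value was -0.02. The KLF motif CACCC was found in 12 of 14 promoters of this list (85.7%) and in 66.5% of tested genes with an entry, with 1 match in Klf2 and 0 in Il7r. S1pr1 was not searched.

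**Figure D2:**
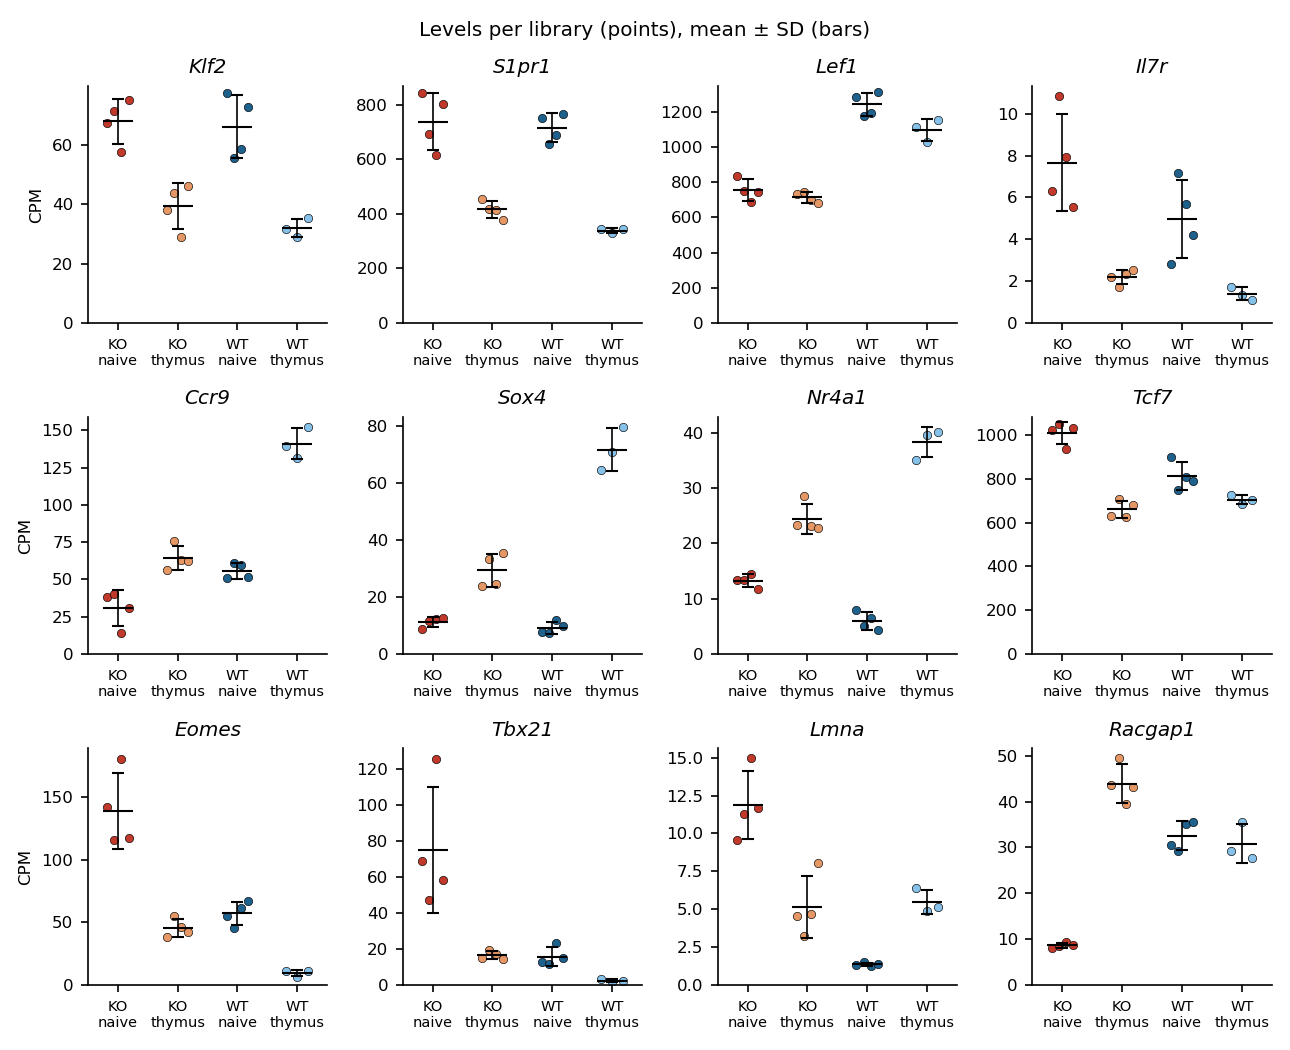
CPM of 12 genes in each KO naive, KO thymus, WT naive and WT thymus library (points), with mean and SD. Klf2, S1pr1 and Il7r are higher in naive than in thymus libraries of both genotypes, whereas Racgap1 has its lowest values in the 4 KO naive libraries, at 8.02 to 9.36 CPM.

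Genes tied to residence in the thymus fell for the most part. Of 7 tested members of the retention list 4 fell and 2 rose, with a median of -1.06, against 21.7% lower and 22.4% higher among all tested genes. Ccr9, the receptor for the thymic chemokine CCL25, had 38.3, 40.3, 13.9 and 31.0 CPM in KO naive libraries, against 56.0, 75.5, 62.8 and 62.6 CPM in KO thymus libraries. Its values did not overlap, and KO naive replicate 3 was the lowest (log2 fold change -1.06 ± 0.19, adjusted p = 2.80e-05). Itgae, the integrin chain CD103 that binds epithelium, and Ccr4, a chemokine receptor of the medulla, fell by 1.74 ± 0.13 and 3.02 ± 0.35. Plxnd1, the plexin that steers thymocytes into the medulla, had 3.12, 1.86, 2.37 and 4.06 CPM in KO naive libraries, against 10.5, 13.1, 10.1 and 13.1 CPM in KO thymus libraries (log2 fold change -2.004 ± 0.25). Grk2, a kinase that switches off S1PR1, rose by 0.37 ± 0.06. Cd69, the membrane protein that holds S1PR1 inside the cell, had 2 to 8 counts in each of the 8 libraries, and Cd24a, the heat-stable antigen of immature thymocytes, 0 to 5. Neither was tested.

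Of 19 tested genes of the immature single positive and recombination list, 10 fell and 5 rose (median -0.44), against the same 21.7% and 22.4%. Rag1, which encodes the recombinase of antigen receptor genes, had 0 counts in all 4 KO naive libraries, against 171, 209, 165 and 242 counts in KO thymus libraries. With a floor of 3 counts over the group it was at least 254-fold lower in KO naive cells. Dntt, the polymerase that adds bases at receptor gene joints, fell by 0.97. Sox4, a transcription factor of early thymocytes, had 8.78, 11.6, 12.2 and 12.6 CPM in KO naive libraries, against 24.0, 33.1, 24.6 and 35.5 CPM in KO thymus libraries (log2 fold change -1.38 ± 0.21, adjusted p = 1.52e-06). Tox, a factor needed for positive selection, and Arpp21 fell by 0.99 ± 0.09 and 2.39 ± 0.31. The members that rose were Tcf12, Themis, Bcl6, Cd8b1 and Myb, at log2 fold changes of 0.24 to 1.41. The marker list of double positive thymocytes shares genes with this list, among them Rag1, Rag2, Dntt, Ptcra and Arpp21, so it is not a separate observation. Its 9 genes summed to 7.87 to 17.3 CPM in KO naive and 29.8 to 44.9 CPM in KO thymus libraries. The part of double positive thymocytes in the result was not tested.

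Genes of late maturation rose more often than they fell. Of 26 tested members 12 rose and 2 fell, with a median of 0.45. H2-K1, a classical class I histocompatibility gene, rose by 0.45 ± 0.07 and Txk, a Tec family kinase, by 1.07 ± 0.12. The nonclassical class I genes H2-Q7 and H2-Q6 rose by 1.04 ± 0.10 and 2.09 ± 0.20, but they are near copies of each other and may share reads. Igfbp4 and Atp1b1 fell, by 1.27 and 0.56. Of 7 tested GIMAP genes, GTPases of lymphocyte survival that lie on chromosome 6, 5 rose (median 1.22). Gimap6 had 31.3, 32.3, 28.3 and 22.6 CPM in KO naive libraries, against 11.3, 11.4, 8.37 and 11.2 CPM in KO thymus libraries (log2 fold change 1.45 ± 0.13, adjusted p = 1.70e-12). Gimap8 rose by 0.93 ± 0.11, and Gimap3 and Gimap4, at lower counts, by 1.88 ± 0.35 and 1.34 ± 0.35.

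Most genes of the naive and resting state rose, with 19 of 27 higher and 2 lower (median 0.56). Klf6, a Kruppel-like factor, had 121, 147, 149 and 158 CPM in KO naive libraries, against 38.0, 46.4, 47.0 and 37.0 CPM in KO thymus libraries (log2 fold change 1.77 ± 0.11, adjusted p = 1.96e-15). Tob1, an antiproliferative gene, rose by 1.73 ± 0.12, Klf3 by 1.502 ± 0.13 and Foxp1, a factor of naive quiescence, by 0.70 ± 0.06. Tcf7, which encodes the naive and stem-like T cell factor TCF1, had 1022, 1049, 937 and 1034 CPM in KO naive libraries, against 631, 707, 625 and 681 CPM in KO thymus libraries (log2 fold change 0.61 ± 0.06, adjusted p = 1.82e-10). Its relative Lef1 had 837, 751, 687 and 746 CPM in KO naive libraries, against 735, 744, 698 and 679 CPM in KO thymus libraries. The Lef1 values overlapped and the gene was not called (log2 fold change 0.08 ± 0.07, adjusted p = 0.376). Of 13 tested Kruppel-like factors 7 rose and 1, Klf12, fell (median 0.60). Klf7 rose by 0.85 ± 0.08.

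Targets of antigen receptor signalling mostly fell. Of 21 tested genes of the positive selection list 13 fell and 3 rose (median -0.71). Nr4a1, an orphan nuclear receptor that tracks receptor signal strength, had 13.4, 13.5, 14.4 and 11.7 CPM in KO naive libraries, against 23.3, 28.5, 23.1 and 22.8 CPM in KO thymus libraries (log2 fold change -0.89 ± 0.17, adjusted p = 2.72e-05). Its relative Nr4a3 fell by 1.34 ± 0.17 and Cd6, a receptor that tunes the signal, by 0.71 ± 0.10. Egr1, an immediate early factor, fell by 1.17 ± 0.20. The 3 that rose were Gata3, a lineage factor (0.64 ± 0.09), Nfatc1 (0.40) and Bcl2l11, the death gene BIM (0.93 ± 0.15). The signalling cascade itself was split, with 12 of 36 genes higher and 9 lower (median 0.06). Ptpn22, a phosphatase that restrains the receptor, and Malt1, the paracaspase that links it to NF-kB, rose by 0.61 ± 0.08 and 0.52 ± 0.08. Without KO naive replicates 3 and 4 together, 5 of these 36 were lower. Of 19 tested AP-1 and immediate early genes 10 rose and 3 fell (median 0.55). Junb had 89.15, 65.4, 93.2 and 93.7 CPM in KO naive libraries, against 42.3, 39.7, 34.2 and 49.8 CPM in KO thymus libraries (log2 fold change 1.04 ± 0.16). Without KO naive replicates 3 and 4 together 6 of these 19 were higher.

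NF-kB genes mostly rose, with 17 of 26 tested members higher and 1 lower (median 0.35). Traf1, an adaptor and target of the pathway, had 61.8, 66.5, 76.7 and 57.8 CPM in KO naive libraries, against 21.9, 26.8, 24.8 and 23.1 CPM in KO thymus libraries (log2 fold change 1.44 ± 0.10, adjusted p = 1.96e-15). Ikbkb and Map3k14, kinases of the classical and the alternative arm, rose by 0.87 ± 0.07 and 1.03 ± 0.10. Nfkbia, the inhibitor that the pathway induces, had 374, 347, 462 and 422 CPM in KO naive libraries, against 265, 258, 262 and 258 CPM in KO thymus libraries (log2 fold change 0.62 ± 0.09). The number higher was 14 without KO naive replicate 3 and 11 without replicates 3 and 4 together. Of 6 tested genes of TNF receptor family costimulation 4 rose and 1 fell. Ltb, the ligand lymphotoxin beta, had the firmest call, at 0.75 ± 0.10. The other calls rested on a few counts: without KO naive replicate 2 or without KO thymus replicate 2 the number higher was 1, and without KO naive replicate 1, KO naive replicate 3 or KO thymus replicate 3 it was 2. Of 20 tested interferon stimulated genes 2 rose and 5 fell (median -0.16), against 22.4% higher and 21.7% lower among all tested genes. The share that fell was thus near the background. In WT 1 of the 20 rose and 9 fell (median -0.65), against 15.3% and 16.9%. Irf1 rose by 0.63 ± 0.11, and the antiviral genes Ifit1, Ifit3 and Mx1 fell by 1.18 ± 0.27, 1.11 ± 0.29 and 0.78 ± 0.20. Without KO naive replicates 3 and 4 together 3 interferon genes were lower.

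Genes of the memory list were mostly higher in KO naive than in KO thymus libraries, and KO naive replicate 3, the female library of its group, held the highest value of several. Of 22 tested genes of the memory list 16 rose and 2 fell (median 1.76). Without KO naive replicate 3 the number higher was 13, without replicates 3 and 4 together 11, and 9 when no other libraries were fitted. In WT 11 of the 22 rose and 2 fell, with the same median of 1.76. The difference between KO and WT was called higher for 2 and lower for 1 of them, against 3.01% and 3.33% of all tested genes. Eomes, a T-box factor of memory cells, had 142, 116, 181 and 117 CPM in KO naive libraries, against 38.3, 54.9, 46.4 and 42.2 CPM in KO thymus libraries. Its values were far apart in all libraries (log2 fold change 1.61 ± 0.17, adjusted p = 4.18e-09). Tbx21, the related T-box factor T-bet, had 69.0, 47.3, 126 and 58.3 CPM in KO naive libraries, against 15.2, 19.4, 17.4 and 14.8 CPM in KO thymus libraries (log2 fold change 2.16 ± 0.26, adjusted p = 7.35e-08). Cxcr3, a chemokine receptor of effector and memory cells, rose by 3.08 ± 0.35 at low counts. The natural killer cell marker list shares Nkg7, Prf1, Gzma, Gzmb and Klrk1 with the effector and memory lists, so it is not a separate observation. Its 7 genes summed to 4.81 to 7.74 CPM in KO naive and 2.89 to 3.93 CPM in KO thymus libraries. Of these, 2 of the 3 tested were called higher, and Ncr1 and Gzmb were at 0 in all 8 libraries. The part of natural killer cells in the result was not tested.

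Cd44, whose product was gated out of the naive sort, had 5.49, 5.92, 17.96 and 6.30 CPM in KO naive libraries, against 3.58, 6.58, 5.83 and 4.70 CPM in KO thymus libraries. KO naive replicate 3 stood alone and the other values overlapped. The log2 fold change was 0.73 ± 0.26 (adjusted p = 0.0218), and without KO naive replicate 3 it was 0.16 (adjusted p = 0.525). Il2rb, the receptor chain shared by interleukins 2 and 15, had 13.6, 11.9, 23.6 and 8.87 CPM in KO naive libraries, against 8.95, 8.54, 9.20 and 9.57 CPM in KO thymus libraries. Its log2 fold change of 0.66 ± 0.18 was 0.33 without KO naive replicate 3 (adjusted p = 0.0836). Of 16 tested effector genes 7 rose and 4 fell (median 0.43), and without KO naive replicate 3 the numbers were 3 higher and 5 lower. Ccl5, a chemokine of effector cells, had 168, 127, 452 and 190 CPM in KO naive libraries, against 4.68, 24.5, 23.4 and 4.62 CPM in KO thymus libraries (log2 fold change 3.97 ± 0.48, adjusted p = 1.09e-07). Samd3, a memory list gene, had 13.1, 10.5, 46.9 and 12.3 CPM in KO naive libraries, against 2.48, 2.48, 3.16 and 2.07 CPM in KO thymus libraries. KO naive replicate 3 was highest for both genes. That the other 3 KO naive libraries also lay above all KO thymus libraries was a condition of the rule that named both. The galectin genes Lgals1 and Lgals3 fell by 1.26 ± 0.16 and 2.89 ± 0.45.

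**Figure D3:**
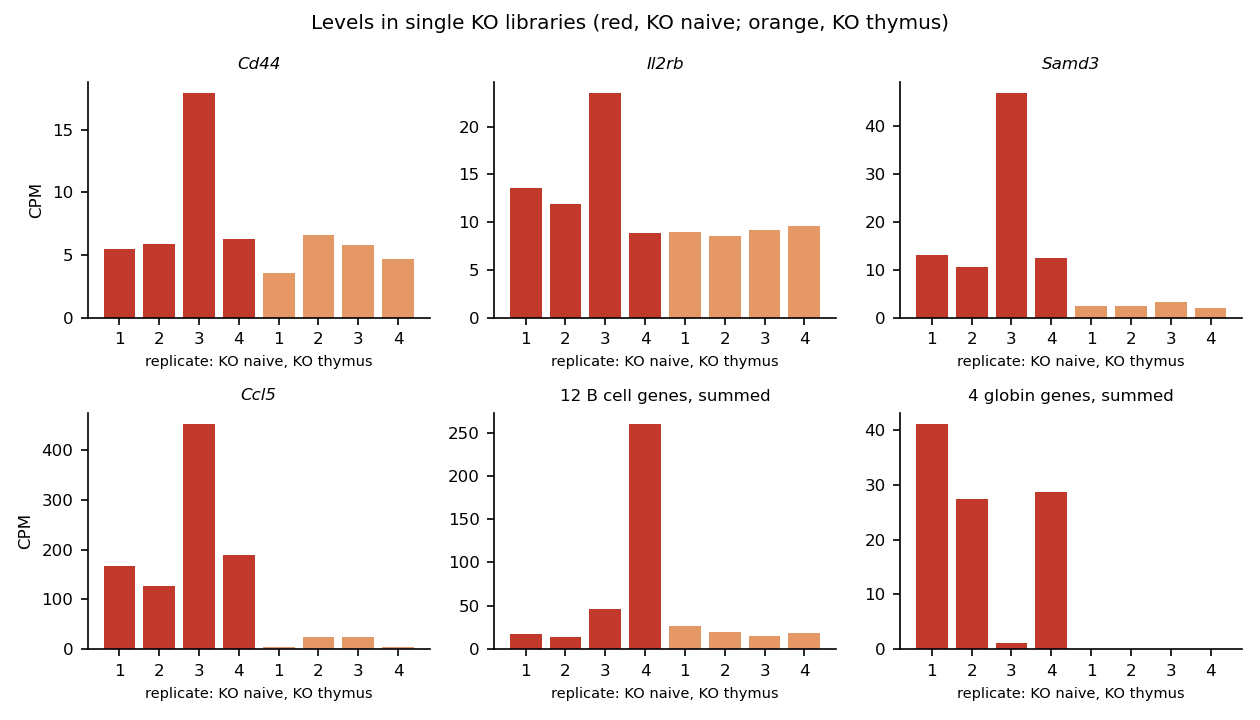
CPM of Cd44, Il2rb, Samd3 and Ccl5, of 12 B cell genes summed and of 4 globin genes summed, 1 bar per KO naive and KO thymus library. KO naive replicate 3 is highest for the first 4 panels, KO naive replicate 4 holds 260 CPM of B cell genes, and globins are at 0 in the 4 KO thymus libraries.

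Cytokine receptor, chemokine receptor and adhesion genes were mixed. Of 16 tested genes of common gamma chain signalling 6 rose and 3 fell (median 0.38). Socs3, a feedback inhibitor of cytokine signals, had 46.7, 28.2, 32.2 and 42.8 CPM in KO naive libraries, against 11.7, 14.5, 9.06 and 9.81 CPM in KO thymus libraries (log2 fold change 1.75 ± 0.16). Jak1 and Pim1, kinases of the same pathway, rose by 0.54 ± 0.06 and 0.97 ± 0.12. Of 18 genes of interleukin-6 and TGF-beta signalling 6 rose and 5 fell (median 0.09), and without KO naive replicates 3 and 4 together 3 fell. Smad3 and Smad4, mediators of TGF-beta signals, rose by 0.80 ± 0.09 and 0.57 ± 0.06, and the corepressor gene Skil fell by 0.93 ± 0.10. Of 9 tested chemokine receptors 5 rose and 2 fell (median 0.68), with 3 higher when KO naive replicates 3 and 4 were left out together and 2 when only the compared libraries were fitted. Of 22 tested integrin and adhesion genes 10 rose and 3 fell (median 0.31). Without KO naive replicates 3 and 4 together 5 rose. Itga4, the chain that binds vascular VCAM1, had 184, 242, 191 and 242 CPM in KO naive libraries, against 122, 137, 149 and 132 CPM in KO thymus libraries (log2 fold change 0.67 ± 0.15). Vcl, which encodes the adhesion linker vinculin, rose by 1.16 ± 0.14, and Itga5, the fibronectin receptor chain, fell by 0.82 ± 0.12.

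Genes of growth and biosynthesis fell more often than they rose. Of 23 genes of the Myc and ribosome biogenesis list 15 fell and 1 rose (median -0.29). Nop58, a core protein of small nucleolar particles, had 138, 118, 139 and 137 CPM in KO naive libraries, against 265, 231, 232 and 244 CPM in KO thymus libraries (log2 fold change -0.87 ± 0.08, adjusted p = 9.78e-12). Its partner Nop56 fell by 0.63 ± 0.07. Of 19 heat shock and chaperone genes 14 fell (median -0.46). Hspa1b was uneven, with 989, 178, 1253 and 76 counts in KO naive libraries, against 68, 200, 245 and 168 in KO thymus libraries. Hspa1a was likewise highest in KO naive replicates 1 and 3, with 396 and 533 counts. Hspd1, the mitochondrial chaperonin, had 136, 130, 145 and 122 CPM in KO naive libraries, against 281, 279, 239 and 210 CPM in KO thymus libraries (log2 fold change -0.92 ± 0.10). Tcp1, a subunit of the cytosolic chaperonin, fell by 0.53 ± 0.07. Of 17 glycolysis genes 9 fell and 2 rose (median -0.47). Hk2, a hexokinase of dividing lymphocytes, fell by 1.60 ± 0.16 and Pgk1 by 1.10 ± 0.07. Cholesterol genes were near the background of 22.4% and 21.7%, with 4 of 17 higher and 3 lower (median 0.23). Soat2, which stores cholesterol as ester, rose by 2.35 ± 0.18.

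Lists of chromatin, lineage and survival genes moved in both directions. Of 14 genes of the DOT1L complex and its elongation partners 6 rose and 2 fell (median 0.16), with Ell2, an elongation factor, at 2.26 ± 0.37. Of 12 genes of Polycomb repressive complex 2 (PRC2) 7 fell and 2 rose (median -0.37). Ezh2, its methyltransferase, had 41.8, 47.7, 46.9 and 48.7 CPM in KO naive libraries, against 275, 290, 249 and 257 CPM in KO thymus libraries (log2 fold change -2.53 ± 0.12, adjusted p = 1.23e-18). The accessory subunit gene Phf1 rose by 1.29 ± 0.08. Of 21 tested lineage factors 8 rose and 5 fell (median 0.09). Myb, a factor of progenitor cells, had 266, 314, 336 and 292 CPM in KO naive libraries, against 111, 115, 111 and 119 CPM in KO thymus libraries (log2 fold change 1.41 ± 0.19, adjusted p = 6.50e-07). Of 12 tested Notch pathway genes 4 rose and 2 fell. Notch3, a receptor of thymocytes, had 1.52, 4.27, 2.58 and 3.98 CPM in KO naive libraries, against 21.1, 19.4, 18.6 and 19.0 CPM in KO thymus libraries (log2 fold change -2.66 ± 0.28). Of 14 tested BCL2 family genes 3 rose and 2 fell. Of 7 tested innate-like T cell genes 4 rose and 1 fell, of 7 inhibitory receptors 2 rose and 1 fell, and of 12 semaphorins, plexins and neuropilins 2 rose and 2 fell. These last shares are near the background of 22.4% and 21.7% for the BCL2, inhibitory receptor and semaphorin lists.

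**Figure D4:**
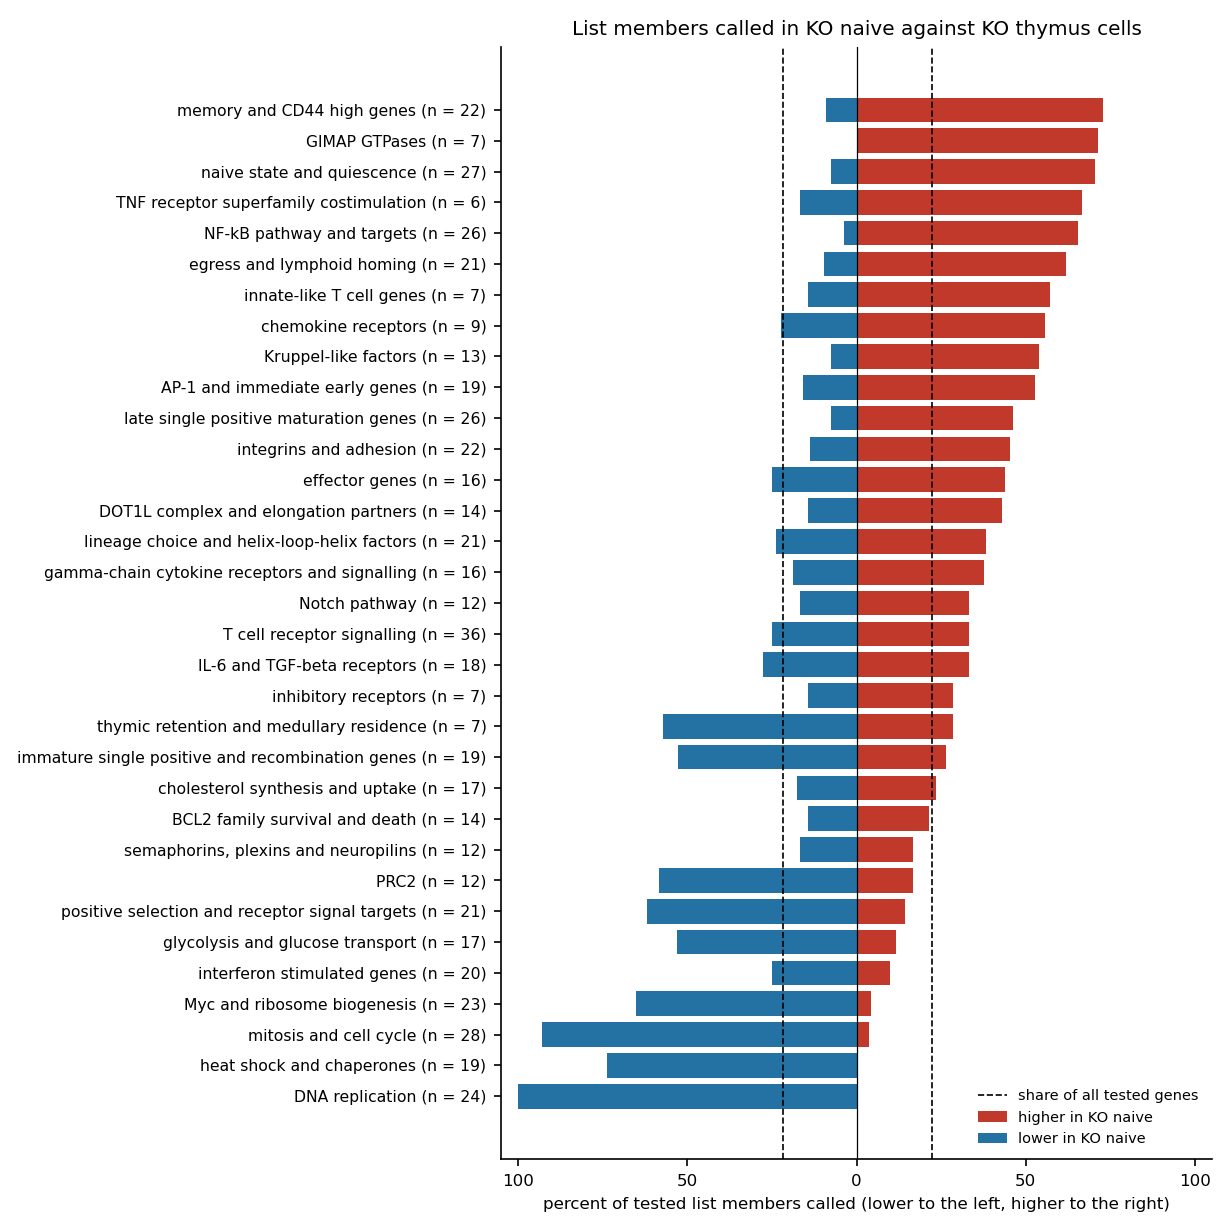
Percent of the tested members of each list that were called lower (left) or higher (right) in KO naive than in KO thymus libraries, with the shares of all tested genes, 21.7% and 22.4%, as dashed lines. All 24 DNA replication genes are lower, and 19 of 27 genes of the naive state are higher.

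Most of the maturation change of WT cells was also called in KO cells. In WT libraries 3319 genes (32.2%) were called between naive and thymus cells, 1575 higher (15.3%) and 1744 lower (16.9%). Of the 389 genes (3.78%) higher in WT naive cells by more than 1 on the log2 scale, 296 (76.1%) were called higher in KO naive cells and 1 lower. Of the 649 (6.3%) lower in WT naive cells by that limit, 537 (82.7%) were called lower in KO naive cells and 8 higher. The median log2 fold change of the first set was 1.20 in KO and 1.59 in WT, and that of the second -1.79 in KO and -2.12 in WT. The sets were chosen on WT values, so these medians are a description. In the other direction, 283 of 483 genes higher in KO naive cells (58.6%) and 549 of 673 lower (81.6%) were called the same way in WT. The WT log2 fold change had the same sign for 450 of the 483 and 653 of the 673, and 5 and 2 were called the opposite way. WT had 3 thymus libraries and fewer calls over all genes, so a gene without a call in WT is not shown to be unchanged there.

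The difference between the KO and the WT change was called for 653 genes (6.34%), 310 with a higher (3.01%) and 343 with a lower value in KO (3.33%). Against Het it was called for 496 genes (4.82%). Both differences use the same 8 KO libraries. Of the 310, 114 rose in KO with no call in WT and 80 fell in WT with no call in KO. Another 57 fell in both, 36 rose in both, 20 rose in KO but fell in WT, and 3 were called in neither. Of the 343, 125 fell in both, 111 fell in KO with no call in WT, and 17 fell in KO but rose in WT. A further 45 rose in both and 45 rose in WT with no call in KO.

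**Figure D5:**
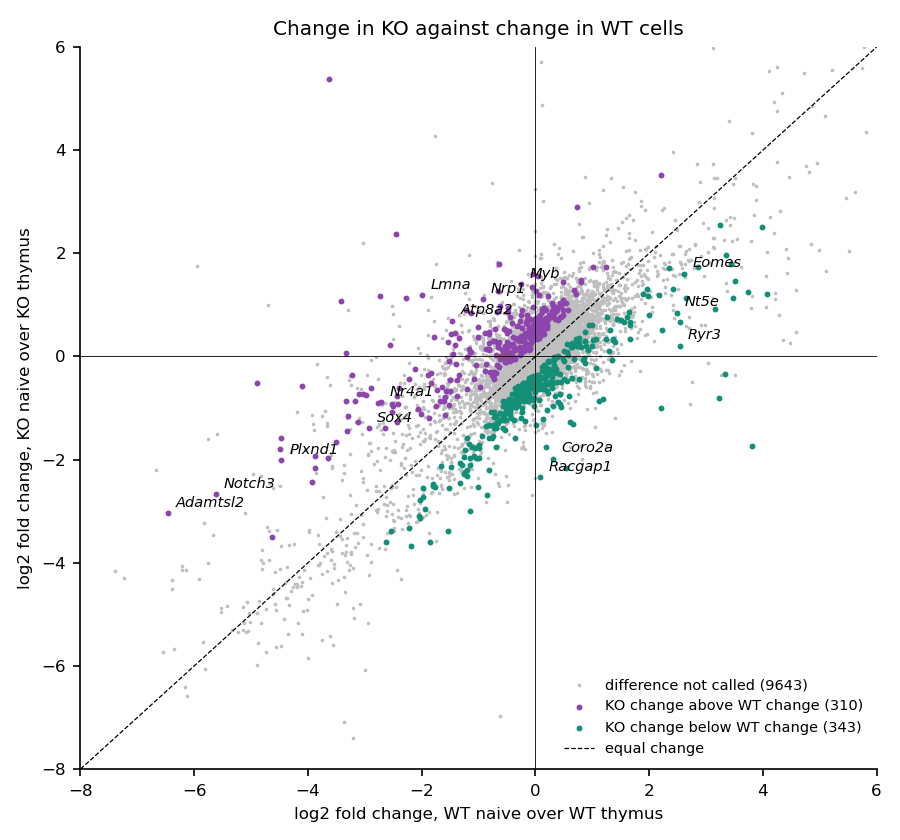
Log2 fold change of KO naive over KO thymus against that of WT naive over WT thymus libraries, 1 point per tested gene (14 lie outside the range), with called differences coloured. Lmna lies above and Racgap1 far below the line of equal change, at differences of 3.18 and -2.42.

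The highest differences were those of Adamtsl2, Lmna, Notch3, Plxnd1 and Plxdc1. Lmna, which encodes the nuclear lamins A and C, had 9.54, 11.3, 14.95 and 11.7 CPM in KO naive libraries, against 4.54, 3.25, 4.67 and 8.05 CPM in KO thymus libraries. In WT it had 1.30, 1.53, 1.23 and 1.36 CPM in naive libraries, against 6.39, 4.88 and 5.18 CPM in thymus libraries. The direction was opposite in the 2 genotypes, at log2 fold changes of 1.19 ± 0.23 in KO and -1.99 ± 0.32 in WT (difference 3.18 ± 0.40, adjusted p = 8.13e-07), and the difference against Het was 2.48. Notch3 and Plxnd1 fell in both genotypes. Plxnd1 had 0.87, 0.51, 0.57 and 1.36 CPM in WT naive libraries, against 16.1, 20.8 and 18.9 CPM in WT thymus libraries (difference 2.47 ± 0.44, adjusted p = 2.85e-04). WT naive libraries held almost no Notch3, with 0 counts in 2 of 4, so the size of its difference, 2.96, is uncertain, and it was 5.11 without WT naive replicate 3.

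The lowest differences were those of Racgap1, Ryr3, Coro2a, Alcam and Slc35g1. Racgap1, a GTPase activator of cytokinesis, had 8.02, 8.54, 9.36 and 8.78 CPM in KO naive libraries, against 43.7, 49.6, 39.4 and 43.1 CPM in KO thymus libraries. In WT it had 30.5, 29.1, 35.1 and 35.5 CPM in naive libraries, against 29.3, 35.6 and 27.6 CPM in thymus libraries, and these overlapped. The difference was -2.42 ± 0.17 (adjusted p = 7.99e-14), and -2.28 against Het. Coro2a, a coronin, had 14.4, 11.9, 12.8 and 13.6 CPM in KO naive libraries, against 54.0, 61.0, 49.96 and 44.6 CPM in KO thymus libraries. In WT it had 12.1 to 22.2 CPM in naive and 11.5 to 15.7 CPM in thymus libraries, so the KO thymus group was the one that stood apart (difference -2.29 ± 0.28, adjusted p = 1.93e-06).

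Ryr3, a calcium release channel, was near 2 CPM in both KO groups, at 1.60 to 3.23 in naive and 1.45 to 2.61 in thymus libraries, against 3.90 to 4.83 CPM in WT naive and 0.40 to 0.99 CPM in WT thymus libraries. Slc35g1, a transporter-like gene, had 0.99 to 1.94 CPM in KO naive and 2.54 to 4.23 CPM in KO thymus libraries. In WT it had 9.31 to 9.84 CPM in naive and 5.46 to 6.73 CPM in thymus libraries (difference -1.97 ± 0.33, adjusted p = 1.09e-04).

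Besides Lmna and Alcam, 7 genes of the WT sets were called in the opposite direction in KO, among them Itgb3, Atp8a2, Rasgrp4, Slc37a2, Arhgef5 and Dhrs3. All 7 fell in WT naive cells and rose in KO naive cells. Itgb3, the integrin beta 3 chain, averaged 36.0 CPM in KO naive and 26.2 in KO thymus libraries, and 11.2 CPM in WT naive and 32.2 in WT thymus libraries. Atp8a2, a phospholipid flippase, averaged 46.1 CPM in KO naive and 28.4 in KO thymus libraries, and 5.499 CPM in WT naive and 15.6 in WT thymus libraries. Both genes kept their thymus level or more in naive cells of KO and lost most of it in WT.

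Among the key genes, Sox4, Nr4a1, Tcf7 and Eomes were called for the difference. Sox4 had 24.0 to 35.5 CPM in KO thymus and 64.6 to 79.4 CPM in WT thymus libraries, while the naive libraries were at 8.78 to 12.6 CPM in KO and 7.54 to 11.8 CPM in WT. The fall of Sox4 was 1.54 ± 0.30 smaller in KO (adjusted p = 0.00148). Nr4a1 had 22.8 to 28.5 CPM in KO thymus and 35.2 to 40.2 CPM in WT thymus libraries, and 11.7 to 14.4 CPM in KO naive and 4.40 to 8.01 CPM in WT naive libraries. Its fall was 1.83 ± 0.26 smaller in KO (adjusted p = 9.24e-06). The rise of Tcf7 was 0.41 ± 0.09 larger in KO (adjusted p = 0.00517). Eomes had 116 to 181 CPM in KO naive and 38.3 to 54.9 CPM in KO thymus libraries, against 45.5 to 66.8 CPM in WT naive and 6.63 to 11.3 CPM in WT thymus libraries. Its difference was -1.01 ± 0.27 (adjusted p = 0.0190), and the call was lost without WT thymus replicate 2 (adjusted p = 0.125). The exit genes Klf2, S1pr1 and Il7r had differences of -0.25, -0.25 and -0.12, none of them called. The SEs of these differences were 0.12 to 0.46 on the log2 scale, so small differences were not detectable.

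By list, the difference was called higher in KO for 6 of 19 immature genes (Sox4, Cux1, Satb1, Tcf12, Bcl6 and Myb), 8 of 27 genes of the naive state, 5 of 21 receptor signal targets and 4 of 26 NF-kB genes, against 3.01% of all tested genes. It was called lower in KO for 8 of 24 replication genes, 7 of 23 Myc and ribosome genes and 6 of 19 chaperone genes, against 3.33%. The replication genes fell in both genotypes, with a median of -2.57 in KO and -1.96 in WT. The median of the Myc and ribosome list was -0.29 in KO and 0.10 in WT, where 3 rose and 3 fell. Myb shows the first pattern: its level was 111 to 119 CPM in KO thymus libraries and its difference was 1.66 ± 0.28 (adjusted p = 3.88e-04), and 1.80 against Het. Nt5e, which encodes the ectoenzyme CD73, rose by 0.85 ± 0.14 in KO and by 2.48 in WT (difference -1.63 ± 0.23). Nrp1, which encodes the coreceptor neuropilin 1, rose by 1.12 ± 0.15 in KO and fell by 0.93 in WT (difference 2.05 ± 0.35, adjusted p = 1.63e-04).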

How the data were processed

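RNA of sorted CD8 T cells was sequenced in 35 libraries, of which 8 form the comparison of KO naive with KO thymus cells. Per the labels' protocols, Trizol gave the RNA, mRNA libraries kept the strand, and each fragment was read once over 65 bases. GRCm38 and mm10 are the builds in the submitters' processing notes, which name HTSeq 0.9.1, TopHat and TopHat2 2.1.0 as tools. Neither the strand setting nor the annotation release is stated in the labels, and antisense or overlapping genes may share reads. The deposited values are raw counts per Ensembl gene, 1 table of 52636 genes, in which every column belongs to a labelled library. Symbols came from GENCODE M21, which named 52489 of the identifiers.

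The count test was the robust quasi-likelihood test of edgeR 4.0.16 (R 4.3.3). filterByExpr, given the 9 groups, left 10296 genes, and TMM set the scaling. The model held 1 mean per group over all 35 libraries and no covariate, which leaves 26 residual degrees of freedom. Tests were two-sided, with the Benjamini-Hochberg adjustment run across the tested genes, and a gene is called at an adjusted p under 0.05. Dividing the size of a log2 fold change by the square root of F gave its SE. TMM scaling also applies to CPM, and log2 CPM has a prior count of 2. A count of 0 gets a floor of 3 counts over the group, which covers counting error only.

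Total counts ranged from 4809509 to 16879636 over the 35 libraries, so genes with a handful of counts are measured with low precision. Replicates within a group differed by more than sampling noise. Replicate numbers recur across groups, but correlations of the deviations of equally numbered libraries, 0.0542 to 0.262, were not all above 0.1, so the numbers were not used as pairs.

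The comparison, its 33 process and 10 marker gene lists and the tests were chosen with earlier results of these data known. Named are 18 key genes and the called genes with the 8 highest and 8 lowest log2 fold changes whose library values do not overlap and whose log2 CPM averages 1 or more. Added were the 5 highest and 5 lowest differences between KO and WT from the same mean level up, and up to 4 called members of a list by lowest adjusted p. Left out were predicted genes, receptor segments and sex-linked genes, and a few genes that the rule names are not reported here. Other members, the promoter motifs, the genes with opposite directions, and single B cell, myeloid and globin genes were named after their values were seen. Promoters were the RefSeq set of GRCm38.p6. Alternatives were RLE scaling, centring on the mean log level, no filter, a minimum of 1 CPM in 4 libraries, the test without its robust option, sex as covariate, a model of the compared libraries alone, the replicate block, DESeq2 1.42.0, other signature limits and each replicate left out. Leaving out KO naive replicates 3 and 4 together was added after seeing the data.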

Additional observations from a re-analysis of the deposited data

Results flagged for a closer look

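Of 293 groups of 4 libraries examined over the named genes, 14 had 1 library that lay far from the other 3 by Dixon's test. A rate of 1 group in 20 would give 14.7 groups here. Many of these genes were picked for separate library values or a low adjusted p, and the groups share libraries. The rate therefore cannot tell whether single gaps are chance, and the values are given as a description. KO naive replicate 3 stood alone for Cd44 (17.96 CPM, the others 5.49 to 6.30), Samd3 (46.9 CPM, the others 10.5 to 13.1) and Txk (26.2 CPM, the others 19.3 to 20.4). KO naive replicate 4 stood alone for Mx1 (5.05 CPM, the others 8.82 to 9.20), Apaf1 (30.8 CPM, the others 34.3 to 34.4) and Sema4f (117 CPM, the others 98.5 to 101). KO naive replicate 2 stood alone for Junb (65.4 CPM, the others 89.15 to 93.7) and Nop58 (118 CPM, the others 137 to 139). KO thymus replicate 3 stood alone for Gimap6 (8.37 CPM), Prc1 (26.4 CPM), Bbc3 (1.24 CPM) and Aff4 (131 CPM), and KO thymus replicate 2 for Nr4a1 (28.5 CPM) and Slamf6 (4.61 CPM).

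The change between naive and thymus cells differed between KO and WT, by the edgeR test of the difference itself, for 45 of the named genes. The difference in log2 fold change, KO minus WT, was positive for Adamtsl2 (3.43), Lmna (3.18), Notch3 (2.96), Plxnd1 (2.47), Plxdc1 (2.47), Acoxl (2.17), Nrp1 (2.05), Nr4a1 (1.83), Myb (1.66), Sox4 (1.54), Dtx4 (1.31), Gimap6 (0.97), Nfkbia (0.78), Bcl2l11 (0.78), Smad3 (0.73), Tob1 (0.71), Abcg1 (0.64), Traf1 (0.63), Gata3 (0.51), Tcf7 (0.41), Jak1 (0.34), Bnip3l (0.31), Foxp1 (0.30), Cux1 (0.28). It was negative for Racgap1 (-2.42), Ryr3 (-2.33), Coro2a (-2.29), Alcam (-2.02), Slc35g1 (-1.97), Nt5e (-1.63), Pola1 (-1.04), Eomes (-1.01), Sema4f (-0.80), Ezh2 (-0.76), Rrm1 (-0.72), Tent5a (-0.69), Nop58 (-0.66), Hspd1 (-0.61), Mcm6 (-0.57), Pgk1 (-0.56), Mcm2 (-0.46), Nop56 (-0.41), Rbbp7 (-0.39), Tcp1 (-0.37), Hsp90ab1 (-0.34). Without KO naive replicates 3 and 4 together the differences of Tob1 (0.491, adjusted p = 0.148), Jak1 (0.247, adjusted p = 0.149), Foxp1 (0.286, adjusted p = 0.0641), Gata3 (0.448, adjusted p = 0.0808), Tent5a (-0.685, adjusted p = 0.0726), Cux1 (0.27, adjusted p = 0.118), Bnip3l (0.288, adjusted p = 0.120) and Hsp90ab1 (-0.245, adjusted p = 0.260) were not called by edgeR, and those of Jak1, Cux1 and Hsp90ab1 were not called without KO naive replicate 3 alone either (adjusted p = 0.0641, 0.0996 and 0.0823).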

How the results depend on the processing

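The 4543 calls of KO naive against KO thymus stayed within 1.5 times under every alternative: 4508 with RLE scaling, 4585 with mean log centring, 4411 with no filter, 4597 with a sex covariate, 4323 with only the compared libraries, 4448 by DESeq2, 4089 to 4287 when 1 replicate was left out and 3642 without KO naive replicates 3 and 4 together. The split of higher and lower calls was 2158 and 2350 with RLE scaling and 2547 and 2038 with mean log centring. The 653 differences between KO and WT ranged from 461 to 628 when 1 replicate was left out, and DESeq2 gave 766. The 496 differences between KO and Het ranged from 353 to 507 and were 326 without KO naive replicates 3 and 4 together, where fewer libraries were fitted. The 3319 WT calls ranged from 2710 to 3142. The share of the WT sets called the same way in KO, 80.3% of 1038 genes at the limit of 1 on the log2 scale, was 74.7% with no limit and 86.6% beyond 2. The cause was not tested.

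Replicate numbers do not pair the libraries by the labels. With the replicate block and only the compared libraries 4631 genes were called for KO naive against KO thymus, 946 for the difference from WT, 422 for that from Het and 3135 for WT. As a hint from the data, every KO library correlated best with the one of its own number. Under the block Ccr9 (adjusted p = 0.0617) and the difference of Notch3 (adjusted p = 0.130) were not called.

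Among named genes 3 values changed sign, none of them called: Ccr7 (-0.016 to 0.115 when 1 replicate was left out, lowest without KO thymus replicate 3), and Ryr3 (-0.031 to 0.407, lowest without KO naive replicate 4) also without KO naive replicates 3 and 4 together (-0.119). Cd44 lost its call in 7 of 18 alternatives, with adjusted p up to 0.768. Il2rb lost it with only the compared libraries (adjusted p = 0.0621) and without KO naive replicate 3. The difference of Eomes was not called with only the compared libraries (adjusted p = 0.0657). Weak calls were also those of Plxdc1 and Alcam in KO, lost in 5 and 7 alternatives, and of the differences of Dtx4 (8), Tent5a (5), Jak1 (5), Cux1 (14), Bnip3l (12), Bcl2l11 (8), Hsp90ab1 (14), Foxp1 (3), Tcp1 (3), Tob1, Gata3 and Alcam (2 each) and Acoxl and Traf1 (1 each). Genes with a few counts per library, such as Cd69, Cd24a and most TNF receptor genes, are measured with low precision.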

Other observations

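A few list members outside the rule for named genes, chosen after their values were seen, also differed between KO and WT in how they changed. Ikzf2, which encodes the Ikaros family factor Helios, averaged 368 ± 56.7 CPM in KO naive and 668 ± 31.5 CPM in KO thymus libraries (SD, n = 4 each), and 74.7 ± 30.7 CPM in WT naive (n = 4) and 681 ± 95.6 CPM in WT thymus libraries (n = 3). It fell by 0.86 on the log2 scale in KO and by more in WT (difference 2.31). Bhlhe40, a helix-loop-helix factor of effector cells, averaged 15.7 ± 7.23 CPM in KO naive and 23.7 ± 3.39 CPM in KO thymus libraries (SD, n = 4 each), and 0.53 ± 0.42 CPM in WT naive (n = 4) and 4.41 ± 0.59 CPM in WT thymus libraries (n = 3). Its KO naive values were 12.4, 10.9, 26.4 and 12.8 CPM, and KO naive replicate 3 alone lay in the range of the KO thymus libraries. It fell by 0.60 in KO (difference 2.29), and without KO naive replicate 3 the log2 fold change was -0.97 and the difference 1.93. The fall of Bhlhe40 was not called by edgeR with only the compared libraries (adjusted p = 0.118) or with the replicate block (adjusted p = 0.181). Under the block its difference was not called either (2.23, adjusted p = 0.196). Bmf, a death gene of the BCL2 family, averaged 1.09 ± 0.53 CPM in KO naive and 1.46 ± 0.51 CPM in KO thymus libraries (SD, n = 4 each), and 0.22 ± 0.03 CPM in WT naive (n = 4) and 2.096 ± 0.30 CPM in WT thymus libraries (n = 3). It was not called in KO (log2 fold change -0.36), and its difference from WT was 2.88, with the call lost without KO naive replicate 1 (2.46, adjusted p = 0.0529).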
